A study of Mus musculus with 15 samples.

Results

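Hepatocyte transcripts in whole blood were described through 39 genes whose mRNA is made mainly in the liver parenchymal cell: carriers and apolipoproteins of plasma, coagulation factors, protease inhibitors, metabolic enzymes and major urinary proteins. The members were chosen by symbol, from a list of hepatocyte genes, and all 39 were found among the 55536 genes of the deposited count table, each on 1 row. The table holds raw read counts of 15 whole-blood libraries, 1 per animal, from male C57Bl/6 mice aged 10 months. In the TBT group (n = 8) the mothers drank water with tributyltin, an organotin compound, at 0.5 mg/kg per day (3.07 µM) until weaning, and in the vehicle group (n = 7) they received vehicle; the offspring themselves were sampled as adults. One animal, vehicle 3, is labelled as having had a liver tumor, and the labels used here give no tumor status for the others. Each library is 1 animal, so the spread given below is the spread between animals of a group. The mothers were the animals exposed, and the labels used here do not give the mother or litter of each animal. Siblings within a group can therefore not be told from unrelated animals, and the tests below treat each animal as a separate replicate.

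The hepatocyte makes most of the proteins dissolved in plasma. Albumin and the transport proteins carry fatty acids, hormones, iron and haem, the apolipoproteins form lipoprotein particles, and fibrinogen, prothrombin and plasminogen build and remove clots. The same cell holds the enzymes of the urea cycle, gluconeogenesis and drug oxidation, and in male mice it secretes major urinary proteins that carry pheromones. Circulating blood cells carry haemoglobin or immune transcripts and are not known for making albumin, so these mRNAs form a small part of a blood library. Hp (haptoglobin, which binds free haemoglobin), Trf (transferrin, which carries iron) and Ass1 (argininosuccinate synthase of the urea cycle) are also transcribed in other cells, and haptoglobin is made by neutrophils.

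The promoters of 3 members are shown because a short motif was frequent in front of the members. Of the 39 members, 29 had a RefSeq promoter entry (GRCm38.p6, from 250 bases before to 50 bases after the start). The letters GTTAAT, the core of the site bound by the hepatocyte factor HNF1, were searched on both strands and occurred in 11 of these 29 windows (37.9%), compared with 8.24% of the 27025 windows of all genes. The 11 were those of Alb, F2, Fabp1, Fga, Fgb, G6pc, Pck1, Serpina1a, Serpina1b, Serpina1c and Vtn. Serpina1a, Serpina1b and Serpina1c are neighbouring copies whose exons share sequence, so their windows may not be separate cases. The 250 bases before the start are printed 5′ to 3′ on the strand of the gene with the match in capitals, which in Fgb is the reverse complement ATTAAC. They lie at chr5:90460620-90460869 (plus strand, Alb), chr3:83049864-83050113 (minus strand, Fgb) and chr12:103738190-103738439 (minus strand, Serpina1b). The matches start 32, 29 and 26 bases before the start site of the RefSeq entry. In the GENCODE annotation used for gene positions, Fgb starts next to its window, at chr3:83049863. Alb starts there at chr5:90460897 and Serpina1b at chr12:103830373, so for these genes the distances hold for the RefSeq start only.
Alb: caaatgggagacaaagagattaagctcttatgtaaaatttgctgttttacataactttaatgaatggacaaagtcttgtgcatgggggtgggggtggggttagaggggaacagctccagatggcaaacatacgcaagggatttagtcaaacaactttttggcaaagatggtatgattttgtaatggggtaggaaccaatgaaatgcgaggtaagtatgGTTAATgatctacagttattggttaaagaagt
Fgb: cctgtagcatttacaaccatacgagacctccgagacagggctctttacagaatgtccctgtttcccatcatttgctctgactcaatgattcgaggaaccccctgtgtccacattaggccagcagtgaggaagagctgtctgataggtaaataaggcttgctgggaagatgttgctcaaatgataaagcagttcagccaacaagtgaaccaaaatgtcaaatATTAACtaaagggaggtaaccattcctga
Serpina1b: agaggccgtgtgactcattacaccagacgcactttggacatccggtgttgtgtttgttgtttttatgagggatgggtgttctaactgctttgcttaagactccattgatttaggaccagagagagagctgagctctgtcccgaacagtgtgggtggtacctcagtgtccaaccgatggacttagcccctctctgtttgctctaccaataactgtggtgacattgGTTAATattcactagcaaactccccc
The forkhead variant TGTTTGC occurred in 9 of the 29 windows (31.0%) and in 5.76% of all windows, TGTTTAC in 4 (13.8%) and 4.05%, and TATAAA in 8 (27.6%) and 15.7%, each on either strand. Serpina1a, Serpina1b and Serpina1c were also among the 9 with TGTTTGC. The longer HNF1 consensus, the C/EBP palindrome TTGCGCAA and a direct repeat bound by nuclear receptors occurred in none of the 29. They were as rare in all windows, at 0.0111%, 0.207% and 0.0481% in the same order, so none would be usual for 29 windows. A match of letters describes the window and is not a measured binding site. Its relation to differences between animals was not tested.

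The libraries held between 6.03 and 11.99 M counts, with 9.99 ± 1.18 M in the TBT group (SD, n = 8) and 9.38 ± 1.67 M in the vehicle group (SD, n = 7). Haemoglobin genes took 28.7% to 50.8% of the counts, and TMM scaling factors ran from 0.405 to 1.58, with TBT 2 (0.405) and TBT 8 (0.529) lowest. In vehicle 6 a single small RNA gene, Gm23935, held 14.0% of the counts. At these depths 3 counts correspond to between 0.250 and 0.497 CPM (counts per M counts of the library), which is the level that a count of 0 still allows. Levels below are CPM of all counts of the library unless TMM is named, and intervals and floors cover counting error only.

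The summed level of the hepatocyte transcripts was high in 4 animals, 2 from each group, and low in the rest. Over all 39 members the TBT libraries ran from 57.2 to 1100 CPM with a median of 74.9 CPM, and the vehicle libraries from 42.2 to 1145 CPM with a median of 140.7 CPM. The highest values were those of vehicle 4 (1145 CPM, 0.114% of its counts) and TBT 1 (1100 CPM, 0.110%), followed by vehicle 7 (624 CPM) and TBT 8 (383 CPM). Every other library was at or below 148 CPM, and the ranges of the groups overlapped. Vehicle 3, with the tumor label, stood at 75.7 CPM.

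Hp, Trf and Ass1 made up 64.5% to 88.8% of the sum in TBT 3 to TBT 7, vehicle 1 and vehicle 3, 45.8% in vehicle 5, and 16.5% to 16.7% in TBT 2, vehicle 2 and vehicle 6. Their combined level ran from 9.53 CPM in TBT 2 to 66.1 CPM in TBT 3, and they were 3.57% of the sum in vehicle 4. Without them, the 36 other members summed to 1104 CPM in vehicle 4 (11895 counts), 1047 CPM in TBT 1 (10160 counts), 560 CPM in vehicle 7 (3379 counts) and 359 CPM in TBT 8 (3534 counts). Next came vehicle 6 (124 CPM), vehicle 2 (117 CPM), vehicle 5 (52.0 CPM) and TBT 2 (47.7 CPM). TBT 4 stood at 30.0 CPM, TBT 3 at 27.9 CPM, vehicle 3 at 14.1 CPM, TBT 6 at 11 CPM, vehicle 1 at 9.90 CPM, TBT 5 at 7.96 CPM and TBT 7 at 6.58 CPM. The highest library was thus 168-fold above the lowest for the 36 members, and 27.1-fold for all 39. In bulk counts, fewer cells of a type and less RNA per cell cannot be told apart.

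**Figure D1:**
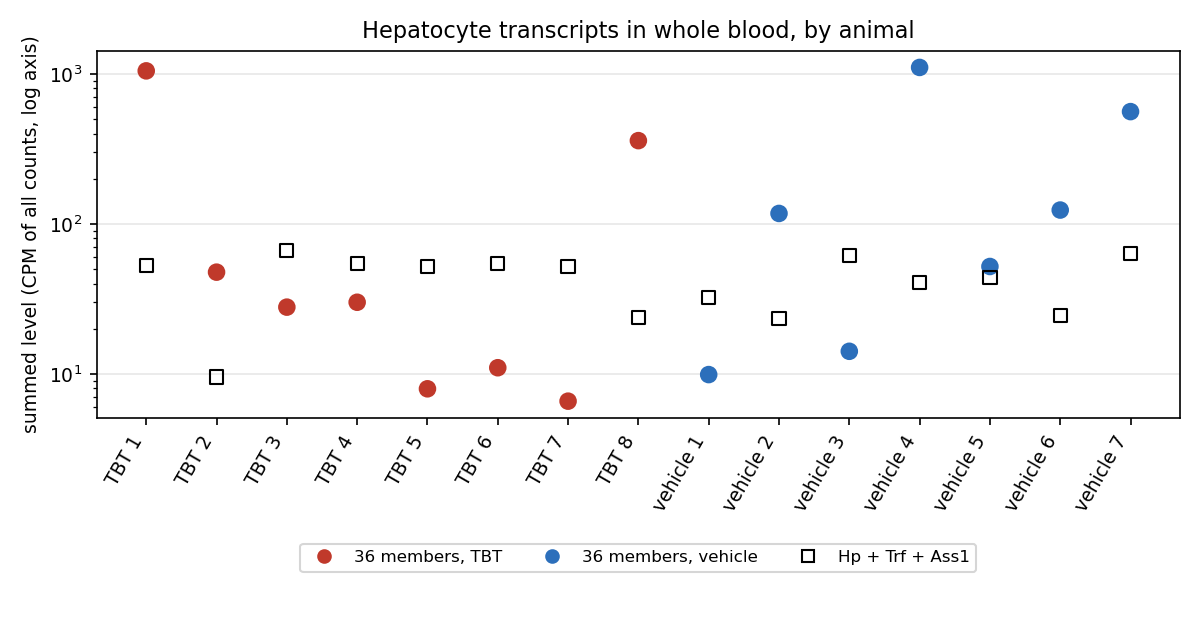
Summed level (CPM of all counts, log axis) of 36 hepatocyte transcripts (filled circles, red for TBT and blue for vehicle) and of Hp, Trf and Ass1 together (open squares) in each of 15 libraries. The circles span 6.58 to 1104 CPM with the highest animals in both groups, whereas the squares stay between 9.53 and 66.1 CPM.

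The members rose and fell together between animals. In 31 of the 39, the level was higher in each of TBT 1, TBT 8, vehicle 4 and vehicle 7 than in all 11 other libraries, compared with 183 of the 41564 genes with any count (0.44%). The 4 libraries were picked after the sums had been seen and the members make up those sums, so these counts are descriptions. The 8 exceptions were Hp, Trf, Ass1, Fabp1, Apoc3, Cyp3a11, Tat and Bhmt. TBT 1 and vehicle 4 were the highest 2 libraries in 33 of the 39 members, and in 379 (0.912%) of all genes with a count. All 39 members had reads in TBT 1, TBT 8, vehicle 4, vehicle 6 and vehicle 7, whereas 18 members were at 0 in TBT 5 and in vehicle 1. The low sums therefore rest on few reads: the 36 members together had 66 counts in TBT 7 and 75 in TBT 5.

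**Figure D2:**
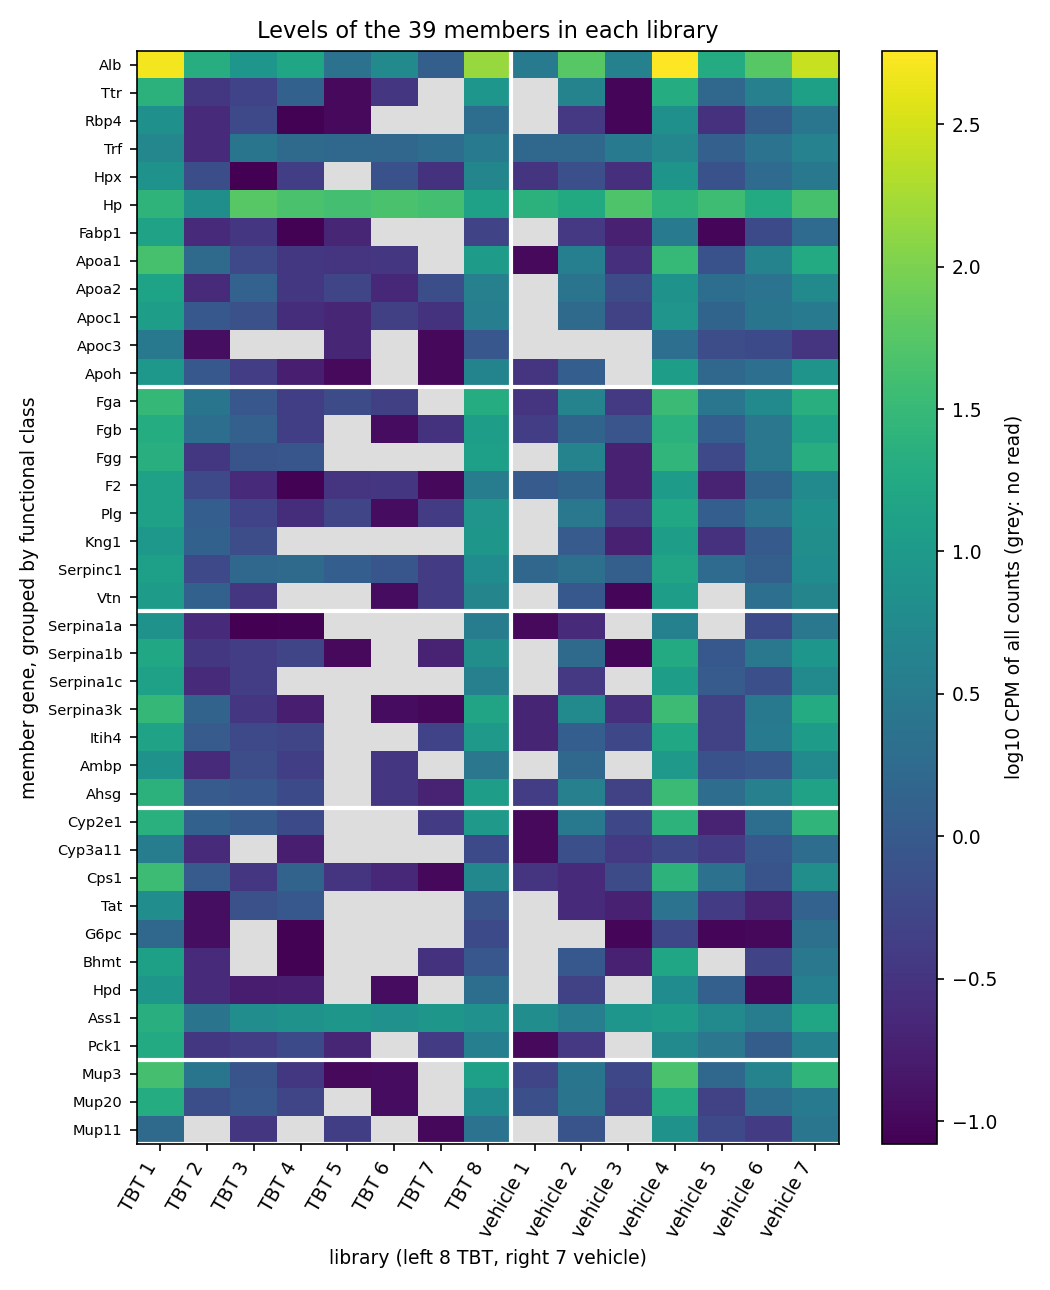
Level of each of the 39 members (rows, grouped by class) in each of 15 libraries (columns), as log10 CPM of all counts, with grey where no read was counted. The columns of TBT 1, TBT 8, vehicle 4 and vehicle 7 are bright over nearly all rows, and the rows of Hp and Ass1 are bright in almost every column.

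Carriers led the sum. Alb (albumin, chr5:90460897-90476602, plus strand, on mm10) ran from 1.20 through a median of 12.2 to 497 CPM in the TBT group and from 3.02 through 57.1 to 572 CPM in the vehicle group. TBT 1 (497 CPM), vehicle 4 (572 CPM), vehicle 7 (272 CPM) and TBT 8 (147 CPM) were highest, and no other library exceeded 57.3 CPM. Per kb of exon, Alb was the highest of the 39 members in each of these 4 libraries, with 244 CPM per kb in vehicle 4 and 62.8 CPM per kb in TBT 8. Averaged over all 15 libraries, Alb stood at 47.9 CPM per kb, Hp at 20.4, Mup3 at 8.72, Apoa1 at 6.27 and Apoa2 at 5.22 CPM per kb, and Cyp3a11 was lowest at 0.124 CPM per kb.

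Hp did not follow albumin. It ran from 6.83 through a median of 41.1 to 57.2 CPM in the TBT group and from 17.9 through 24.9 to 49.7 CPM in the vehicle group, and its highest library was TBT 3. The libraries with the most albumin, vehicle 4 and TBT 1, held 24.9 and 26.1 CPM of Hp. TBT 2 (6.83 CPM) and TBT 8 (13.3 CPM) held the least Hp. The summed level of 10 mature neutrophil markers was also lowest in them, at 272 and 208 CPM beside 444 to 1274 CPM in the other 13 libraries. This was not particular to neutrophils: 10 B cell markers (255 and 374 CPM) and 10 T cell markers (65.4 and 58.5 CPM) were lowest in them too. Monocyte markers were lowest in TBT 2 (659 CPM), with vehicle 4 (832 CPM) below TBT 8 (836 CPM). Haemoglobin genes took their largest shares in TBT 2 (50.8%) and TBT 8 (44.5%). The part of neutrophil RNA in the level of Hp was not tested.

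The apolipoproteins of high-density lipoprotein followed albumin. Apoa1 reached 43.5 CPM in TBT 1, 30.8 CPM in vehicle 4, 18.2 CPM in vehicle 7 and 11.2 CPM in TBT 8, and at most 4.27 CPM elsewhere. The highest Apoa2 level was 13.8 CPM, in TBT 1, and the 11 other libraries did not exceed 2.49 CPM. Fabp1, the fatty acid binding protein of the hepatocyte cytosol, stood out in 1 animal: it was 13.5 CPM in TBT 1, 3.15 CPM in vehicle 4, 1.82 CPM in vehicle 7 and 0.508 CPM in TBT 8, and at most 0.610 CPM elsewhere. Trf ran from 0.235 CPM in TBT 2 to 5.05 CPM in TBT 1, with vehicle 4 (4.92 CPM) and vehicle 7 (4.14 CPM) next. TBT 8 (3.15 CPM) lay just below vehicle 3 (3.21 CPM). Trf shares 59.4% of its 50-base stretches with other genes.

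The 8 coagulation and fibrinolysis members summed to between 1.60 CPM (TBT 7) and 151 CPM (vehicle 4). Fga, Fgb and Fgg encode the alpha, beta and gamma chains of fibrinogen and lie side by side between chr3:83007724 and chr3:83049863 on mm10. Fga ran from 0 through a median of 0.777 to 30.1 CPM in the TBT group and from 0.313 through 4.40 to 34.5 CPM in the vehicle group. Fgg ran from 0 through 0.594 to 21.2 CPM in the TBT group and from 0 through 2.85 to 27.6 CPM in the vehicle group. Both were highest in vehicle 4 and TBT 1, and TBT 8 (19.8 CPM of Fga) stood closer to these than it did for albumin. Serpinc1 (antithrombin) was read in every library, with at least 0.399 CPM and at most 14.7 CPM. F2 (prothrombin) and Plg (plasminogen, the precursor of the clot-dissolving protease) reached 13 and 16 CPM.

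Among the 7 protease inhibitors and acute phase proteins, Serpina3k and Ahsg were highest. Serpina3k, a relative of antichymotrypsin, ran from 0 through a median of 0.254 to 30.4 CPM in the TBT group and from 0.208 through 2.95 to 36.1 CPM in the vehicle group. Ahsg (fetuin-A, which keeps calcium phosphate in solution) ran from 0 through 0.764 to 24.1 CPM in the TBT group and from 0.417 through 3.86 to 34.5 CPM in the vehicle group. The 4 libraries with the highest sums were again the highest for both. Serpina1a, Serpina1b and Serpina1c, neighbouring copies of the alpha-1-antitrypsin gene, share 57.6%, 29.5% and 74.2% of their 50-base exon stretches with other genes, so their separate levels are uncertain.

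The enzymes were less uniform. Cyp2e1, a cytochrome P450 that oxidises ethanol and acetaminophen in the hepatocytes around the central vein, ran from 0 through a median of 0.806 to 23.1 CPM in the TBT group and from 0.104 through 2.03 to 26.7 CPM in the vehicle group. Its highest library was vehicle 7 (26.7 CPM), above vehicle 4 (24.8 CPM) and TBT 1 (23.1 CPM). Cps1, the first enzyme of the urea cycle, was 35.2 CPM in TBT 1, 24.9 CPM in vehicle 4, 6.47 CPM in vehicle 7 and 5.18 CPM in TBT 8, and at most 2.22 CPM elsewhere. Ass1, the next but one step of that cycle, was read in every library, from 2.47 through 7.32 to 21.5 CPM in the TBT group and from 3.36 through 6.25 to 15.6 CPM in the vehicle group. Ass1 was highest in TBT 1 (21.5 CPM), vehicle 7 (15.6 CPM) and vehicle 4 (11.1 CPM), but TBT 8 (7.21 CPM) lay within the range of the other 11 libraries, and the gene shares 38.6% of its 50-base stretches with another gene. Pck1, which commits carbon to gluconeogenesis, was 18.8 CPM in TBT 1 and 5.75 CPM in vehicle 4.

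The urinary proteins were higher in each of TBT 1, TBT 8, vehicle 4 and vehicle 7 than in every other library. Mup3 ran from 0 through a median of 0.592 to 42.1 CPM in the TBT group and from 0.521 through 2.61 to 44.7 CPM in the vehicle group. Mup20, the pheromone darcin, ran from 0 through 0.615 to 19.99 CPM in the TBT group and from 0.472 through 2.03 to 19.1 CPM in the vehicle group. In both, TBT 1 and vehicle 4 were close to each other, whereas vehicle 7 held 26.9 CPM of Mup3 but 3.15 CPM of Mup20. Mup11 was highest in vehicle 4 (7.61 CPM), but TBT 1 (1.75 CPM, 17 counts) stood below vehicle 7 (2.65 CPM) and TBT 8 (2.44 CPM). Mup11 shares 77.8% of its 50-base stretches with other genes, as Mup20 shares 50.5% and Mup3 13.3%.

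The 5 classes had the same order of share in the 36-member counts of each of the 4 libraries with the most member reads (shares of counts, not per length). Carriers were 60.2% of the sum in TBT 1, 52.1% in TBT 8, 60.7% in vehicle 4 and 58.3% in vehicle 7. Coagulation genes were 12.4%, 21%, 13.6% and 15.3% in the same order, inhibitors 10.8%, 14.5%, 11.9% and 11.8%, enzymes 10.5%, 6.56%, 7.23% and 8.79%, and urinary proteins 6.10%, 5.80%, 6.47% and 5.83%. The urinary share differed least, and the coagulation share of TBT 8 (95% Wilson interval 19.7% to 22.3%) lay above the intervals of the other 3 libraries, the next of which was vehicle 7 (14.1% to 16.5%). Vehicle 6 and vehicle 2, with 1216 and 988 counts, held 61.9% and 61.5% carriers. Among the 5 libraries with 150 member counts or fewer carriers ran from 37.9% in vehicle 1 (28.8% to 47.9%) to 69.7% in TBT 6 (60.05% to 77.9%), and coagulation genes from 18.2% in TBT 6 to 33.7% in vehicle 1 (25.0% to 43.7%). Much of that share in vehicle 1 was Serpinc1 (15.8%, 15 counts) and F2 (10.5%, 10 counts), whereas in TBT 1 the same genes formed 1.16% and 1.24%.

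**Figure D3:**
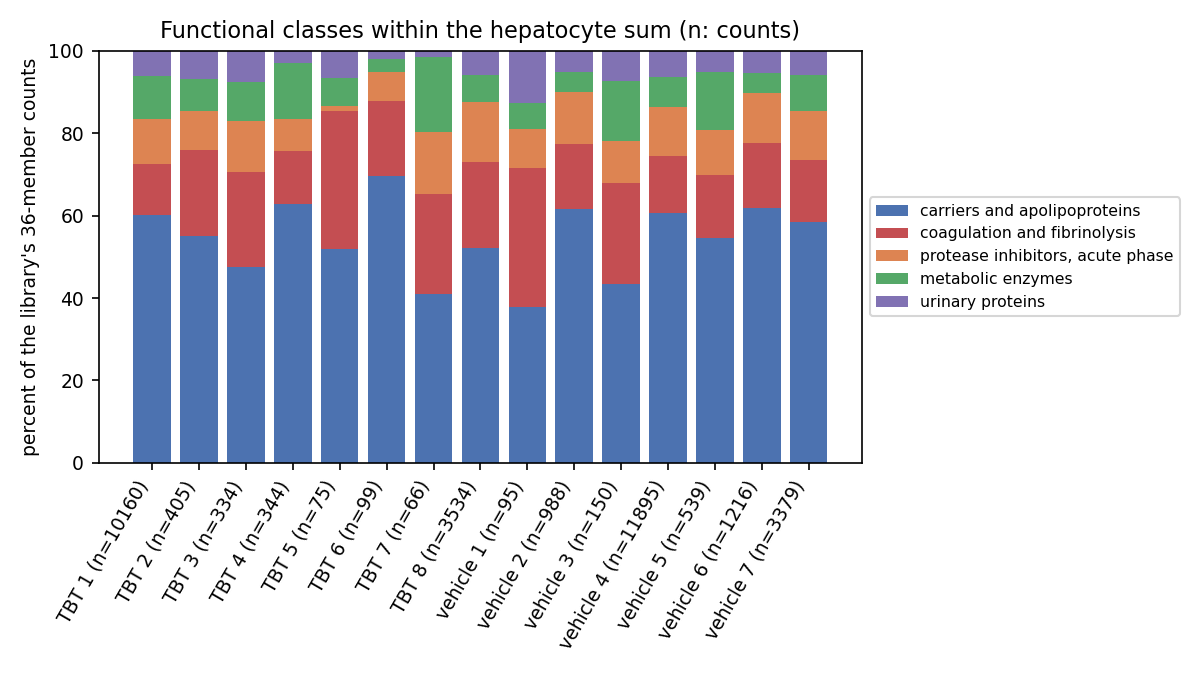
Share of 5 functional classes in the 36-member counts of each library (percent, stacked to 100), with the number of counts behind each bar. Carriers (bottom) form 52.1% to 60.7% of the bars of TBT 1, TBT 8, vehicle 4 and vehicle 7, and the bars with few counts differ more.

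Single members also differed in share between the 4 animals. Albumin was 47.4% of the 36-member sum in TBT 1 (46.5% to 48.4%), 41.0% in TBT 8, 51.8% in vehicle 4 and 48.5% in vehicle 7. The ratio of the highest to the lowest share had a median of 1.83 over the 36 members. It was under 1.5 in 11 members and over 3 in 8, and in 24 of the 36 the Wilson intervals of the highest and lowest share did not overlap. These intervals cover counting error only, and the libraries compared were the extremes of the 4 for each gene. The same count was not made for other genes, so it is not a trait of the members. Serpina1b had the smallest ratio (1.20). Fabp1 had the largest (9.11), with 1.29% of the sum in TBT 1 (131 counts) and 0.141% in TBT 8 (5 counts). Other large ratios also rest on few reads: G6pc and Cyp3a11 had 6 counts each in vehicle 4, and Apoc3 had 2 in vehicle 7.

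Some members took a larger share in 1 or 2 of the 4 animals. In TBT 1 the gluconeogenic and amino acid enzymes Cps1, Pck1, G6pc, Tat and Hpd together formed 6.78% of the sum (6.31% to 7.29%), compared with 3.45% in TBT 8, 3.59% in vehicle 4 and 3.17% in vehicle 7. Cps1, Pck1, Tat and Hpd each had their highest share in TBT 1, whereas G6pc was highest in vehicle 7 (0.385%) and formed 0.157% in TBT 1 and 0.170% in TBT 8. Among libraries with lower sums the same 5 enzymes formed 13% in vehicle 5 (539 counts), 1.89% in vehicle 6 and 1.11% in vehicle 2. In TBT 8 the fibrinogen chains formed 12.2% (11.1% to 13.3%), compared with 6.82% in TBT 1, 7.76% in vehicle 4 and 9.91% in vehicle 7, although Fgg alone was highest in vehicle 7 (3.61%, and 3.45% in TBT 8). Kng1 (kininogen, the source of bradykinin) formed 2.49% in TBT 8, compared with 0.896% to 1.15%. In vehicle 7 Cyp2e1 formed 4.76%, compared with 2.20% to 2.69%, and Mup20 formed 0.562%, compared with 1.73% to 1.91%. In vehicle 4 and TBT 1 Bhmt, which remethylates homocysteine, formed 1.35% and 1.19%, compared with 0.503% in vehicle 7 and 0.255% in TBT 8; the intervals of vehicle 4 and TBT 1 overlapped. Bhmt shares 25.3% of its 50-base stretches with other genes, so its counts are uncertain. Alb had its highest share in vehicle 4 (50.9% to 52.7%).

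**Figure D4:**
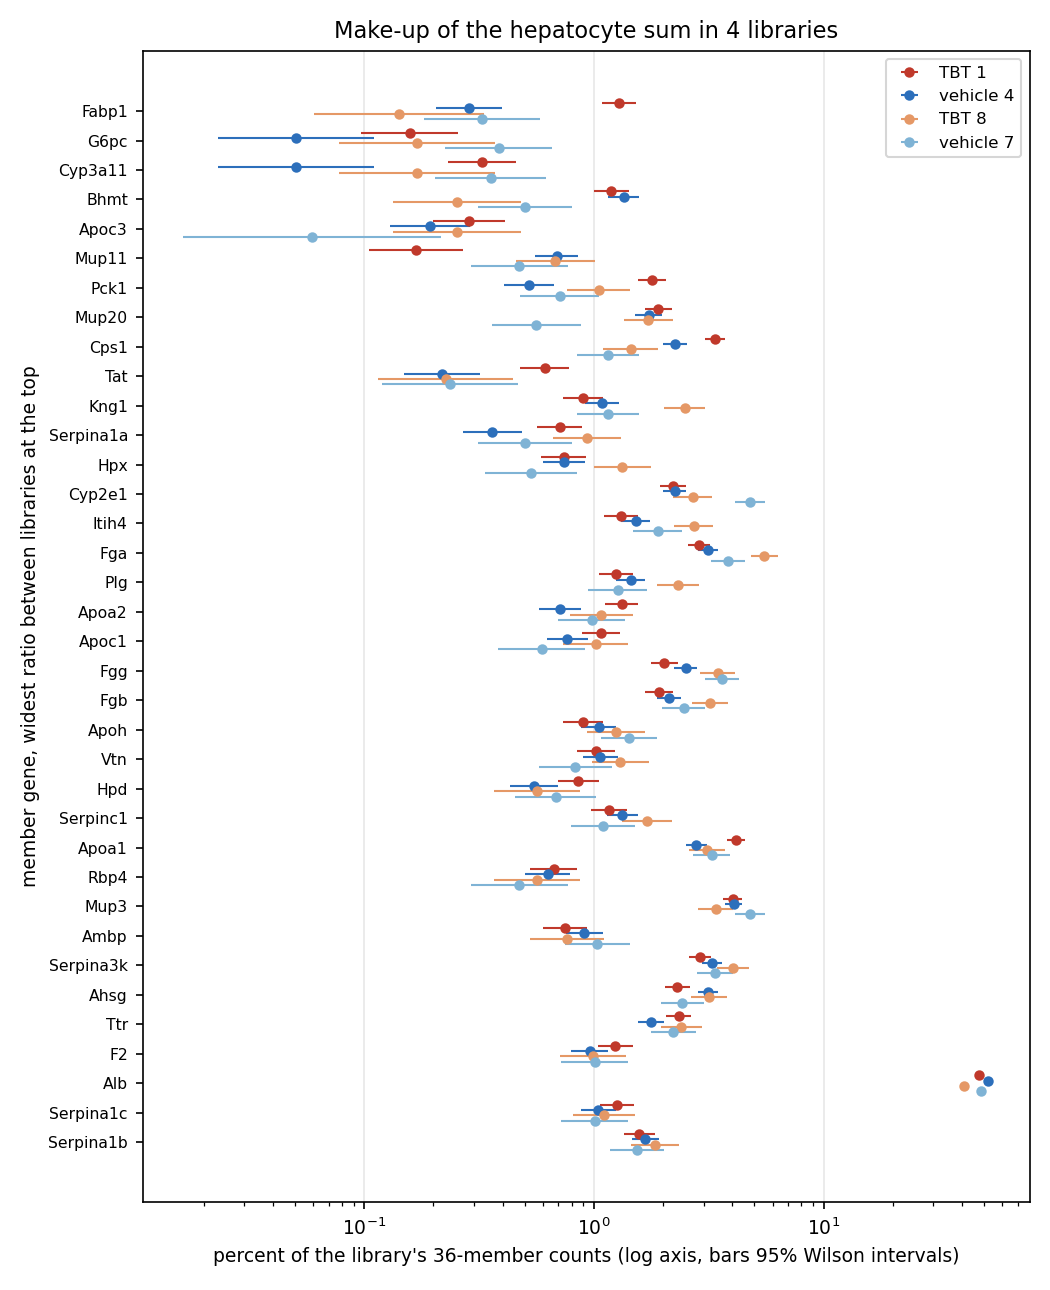
Share of each of 36 members in the library's own 36-member counts (percent, log axis) in TBT 1, vehicle 4, TBT 8 and vehicle 7, with 95% Wilson intervals and the members ordered by the ratio of highest to lowest share. Fabp1 at the top spans 0.141% to 1.29%, whereas the points of Serpina1b at the bottom lie between 1.54% and 1.84%.

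Many other hepatocyte genes followed the same animals. Of 67 further secreted proteins, 34 were higher in each of TBT 1, TBT 8, vehicle 4 and vehicle 7 than in every other library, as were 29 of 65 further enzymes and transporters, compared with the 0.44% of all genes given above. The 67 include close relatives of members, such as Mup14 and Serpina3m, which may share reads with them and so may not be separate cases. Apob (the scaffold of very-low-density lipoprotein) was 133 CPM in TBT 1, 102 CPM in vehicle 4, 59.4 CPM in vehicle 7 and 42.4 CPM in TBT 8, and at most 15.6 CPM elsewhere. Mug1 (murinoglobulin, a broad protease inhibitor) was 61.9 CPM in vehicle 4, 33.2 CPM in TBT 1, 23.2 CPM in vehicle 7 and 22.2 CPM in TBT 8, and at most 4.07 CPM elsewhere. The most abundant genes of these lists did not follow the order: F5 (coagulation factor V, also held by platelet precursors) was 853 CPM in TBT 1 and 640 to 1400 CPM in the 11 other libraries, and Acsl1, C3, F10, Glul and Oat lay within their ranges in at least 1 of the 4.

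Transcription factors of the hepatocyte had few reads, and of the 15 listed only Cebpa averaged more than 0.768 CPM over all libraries. Here a gene has the order of the sum if each of the 4 libraries lies above all 11 others, whatever the ranking within the 4. Hnf4a alone had the order of the sum, with 3.50 CPM in TBT 1, 2.13 CPM in vehicle 4, 1.66 CPM in vehicle 7 and 1.12 CPM in TBT 8, and at most 0.675 CPM elsewhere. Cebpa, which myeloid cells also express, reached 13.7 CPM in a library outside the 4. Of 6 Kupffer cell markers 1, C6, had the order of the sum. The list, which marks the resident macrophage of the liver, summed to 55.2 CPM in TBT 8, 20.3 CPM in TBT 1, 7.42 CPM in vehicle 4 and 8.12 CPM in vehicle 7, and to at most 15.2 CPM elsewhere (vehicle 2), so that vehicle 4 and vehicle 7 lay below a library outside the 4. In TBT 8 these were mainly Vsig4 (21.5 CPM), Timd4 (15.4 CPM) and Cd5l (12.7 CPM), while Clec4f was 0.508 CPM there and 3.61 CPM in TBT 1. None of the 8 sinusoidal endothelium, 8 stellate, 6 bile duct and 10 fetal or tumor liver markers had the order of the sum. Only 0.44% of all genes with a count had it, so lists this short would usually hold none at that rate.

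Markers of other organs and of blood cells are given beside the sum. In the TBT and vehicle groups, 10 skeletal muscle markers summed to 2.44 to 9.87 and 5.19 to 8.68 CPM, 10 kidney tubule markers to 0 to 1.59 and 0.663 to 2.22 CPM, and 10 exocrine pancreas markers to 3.92 to 10.8 and 4.06 to 10.6 CPM. The 10 skin markers reached 2.79 CPM, the 10 intestinal markers 5.98 CPM and the 10 heart markers 7.58 CPM. One marker each of kidney tubule and intestine was at 0 in all libraries. None of these 6 lists held a gene with the order of the sum, which 0.44% of all genes with a count had. Of 10 adipocyte markers 1 had it, Car3 (carbonic anhydrase 3), which the liver also expresses, with 12.1 CPM in TBT 1 and 11.7 CPM in vehicle 4. The 8 markers of immature neutrophil granules summed to 375 CPM in TBT 1 and to at most 85.3 CPM in the other 14 libraries, led there by Ngp (188 CPM) and Ltf (71.6 CPM). Their part in the hepatocyte sum was not tested.

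Between maternal TBT and vehicle, no hepatocyte transcript passed the test. The 39-member sum was 238 ± 365 CPM in the TBT group (SD, n = 8) and 324 ± 412 CPM in the vehicle group (SD, n = 7), so the difference between the means was smaller than the SD of either group. Without Hp, Trf and Ass1 it was 192 ± 365 and 283 ± 409 CPM. The log2 ratio of the 39-member means was -0.45 as measured, -1.50 without TBT 1 and 0.34 without vehicle 4, so that leaving out 1 animal turned its direction.

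By edgeR's quasi-likelihood test with Benjamini-Hochberg adjustment at 0.05, 0 of 13364 tested genes were called (0%), and 846 had an unadjusted p under 0.05 (6.33%). The low-count filter kept 21 of the 39 members, and 18 were not tested; of the 21, 0 were called and 0 had an unadjusted p under 0.05. DESeq2 called 12 genes (0.0319%) and limma-voom 19 (0.142%), none of them members. The log2 fold change was below 0 in 19 of the 21 and in 40.6% of all tested genes, with a median of -0.45 over the 21 and 0.05 over all tested genes, and the members share the same few high animals. The 21 include those that passed the filter through the 4 high libraries.

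Alb had a TMM-scaled mean of 96.4 CPM in the TBT group and 164 CPM in the vehicle group, with a log2 fold change of -0.77 (SE 1.40, adjusted p = 0.979 by edgeR). Fga had -0.43 (SE 1.26), Serpina3k -0.64 (SE 1.37), Ahsg -0.83 (SE 1.23), Cyp2e1 -0.85 (SE 1.30) and Mup3 -0.74 (SE 1.33). For all of these except Cyp2e1 the sign turned when vehicle 4 was left out, and 18 of the 20 members then tested had values above 0. Hp (0.01, SE 0.23) and Ass1 (0.09, SE 0.37) had the smallest errors of the 21. By limma-voom with sample quality weights, which lets libraries differ in weight, the values were -1.99 for Alb, -1.96 for Fga, -2.50 for Serpina3k, -2.33 for Ahsg, -1.65 for Cyp2e1 and -2.60 for Mup3, and the median over the 21 was -1.65; the smallest adjusted p of a member there was 0.313. In the main edgeR test the smallest adjusted p among the members was 0.964, that of Trf.

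By class, edgeR gave values below 0 in 7 of 8 tested carriers, 6 of 6 coagulation genes, 3 of 3 inhibitors, 2 of 3 enzymes and the 1 urinary protein, none of which passed. Of the further secreted hepatocyte proteins 14 were tested (4 above 0 and 10 below, median -0.40), and of the further enzymes 14 (7 above and 7 below, median 0.00). The SE exceeded 1 on the log2 scale in 15 of the 21 members, so that a 2-fold difference between the groups would lie within 1 SE for them.

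**Figure D5:**
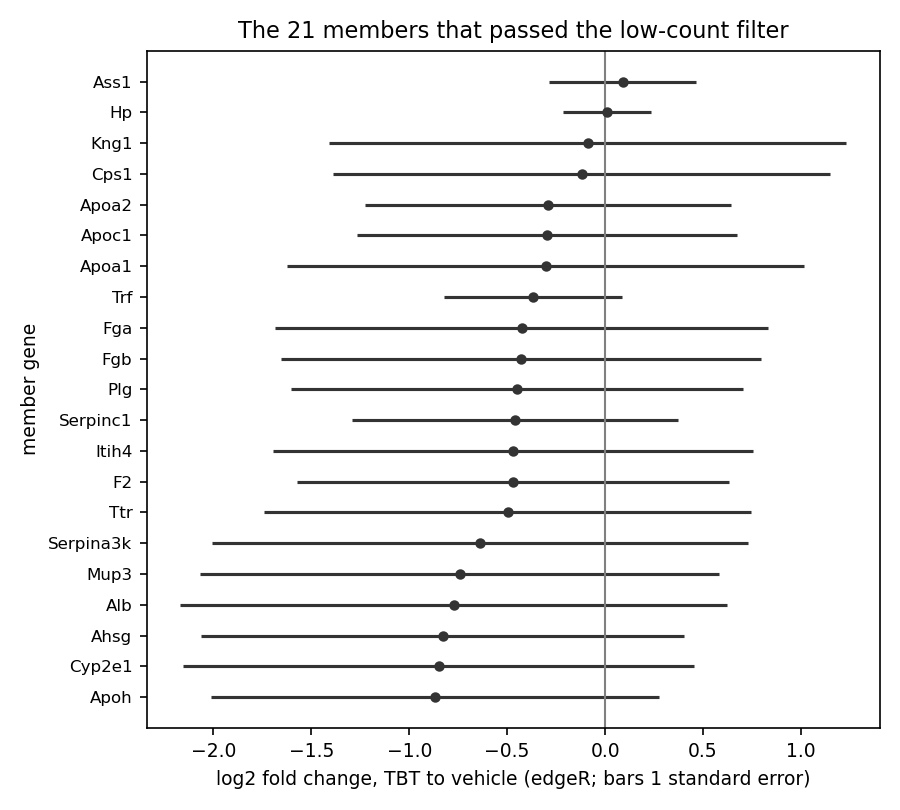
Log2 fold change of TBT against vehicle by edgeR for the 21 members that passed the low-count filter, with bars of 1 standard error. Hp (0.01) and Ass1 (0.09) are above 0, the other 19 are below, and every bar crosses 0.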

How the data were processed

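Whole-blood RNA of 15 mice was extracted (RNeasy, with DNase) and sequenced as TruSeq Stranded Total RNA libraries, per the labels' protocols. Per the submitters' processing notes, Trim Galore, HISAT2 and featureCounts were used with build mm10; strand setting, annotation release and tool versions were not given in the sources used here. Raw counts per gene, in whole numbers, were deposited by the authors. Antisense or near-identical genes may therefore share reads.

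Members and lists were chosen with earlier results of these data known. Levels were computed as CPM of all counts (6.03 to 11.99 M per library), shares with 95% Wilson intervals, and levels between genes per kb of merged exons (GENCODE M21, GRCm38). Per-library values are given for the 2 members of each class with the highest mean CPM, and other members where a sentence turns on them. TBT was compared with vehicle in edgeR 4.0.16 (R 4.3.3, TMM, filterByExpr by group with a count minimum of 10, robust quasi-likelihood test, no covariate), with adjustment over all 13364 tested genes. Alternatives used DESeq2 1.42.0, limma 3.58.1, other scalings, no filter, a replicate block and fewer libraries. The scripts were tested on simulated data. No 2 libraries of a group agreed within sampling noise (chi-square per gene at least 10.9), and each counted as 1 animal. The protein sequences of the members were not analysed here.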

Additional observations from a re-analysis of the deposited data

Results flagged for a closer look

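Within groups, the highest animal stood apart from the others by Dixon's criterion in 14 of 34 tested sets of values. The criterion was a gap over range above 0.526 for 8 animals or 0.568 for 7. It marks about 1 in 20 sets by chance where values are normally distributed. These values are CPM without a log scale and the sets are not independent, so that rate does not apply here. In the TBT group the animal was TBT 1 each time: for the 39-member sum (1100 CPM), the 36-member sum (1047 CPM), carriers (661 CPM), inhibitors (113 CPM), enzymes (131 CPM), urinary proteins (63.9 CPM), Alb (497 CPM), Ahsg (24.1 CPM), Cyp2e1 (23.1 CPM), Ass1 (21.5 CPM), Mup3 (42.1 CPM) and Mup20 (19.99 CPM). In the vehicle group it was vehicle 4, for Ahsg (34.5 CPM) and Mup20 (19.1 CPM).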

How the results depend on the processing

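No member was called under any of the 25 alternatives. Over all genes 0 were called, and leaving out each library in turn gave 0 to 0; without the low-count filter 2 were called, by DESeq2 12, by limma-voom 19, and without TBT 2, TBT 8 and vehicle 6 (chosen after seeing the data) 7. The log2 ratio of the summed level, -0.45, ran from -1.50 to 0.34 when each library was left out in turn. It was -0.52 with TMM scaling, -0.51 without haemoglobin in the totals, -0.29 without Alb, -0.56 without Hp, Trf and Ass1, -0.91 from medians and -0.53 without the 4 highest libraries (chosen after seeing the data). Values turned above 0 without vehicle 4 for Alb (0.39), Fga (0.52), Serpina3k (0.55), Ahsg (0.45) and Mup3 (0.40), the highest of their values with single libraries left out; the lowest were -1.72, -1.32, -0.89, -1.70 and -1.94, but Serpina3k did not pass the filter without TBT 1, TBT 2 or TBT 8, so its range covers 12 of the 15. Those of Hp turned below 0 with upper-quartile factors (-0.014), DESeq2 (-0.0028) and haemoglobin genes left out (-0.0082), and ran from -0.15 to 0.13 when each library was left out in turn. Those of Ass1 turned below 0 with the replicate block (-0.047) and without TBT 2, TBT 8 and vehicle 6 (-0.087), and ran from -0.19 to 0.35 over single libraries left out. The cause was not tested. Leaving out Hp, Trf and Ass1 moved the median share over 15 libraries from 19.8% to 43.5% for Alb, from 69.3% to 55.1% for carriers, from 8.25% to 18.2% for coagulation, from 11.6% to 7.65% for enzymes, from 5.94% to 10.9% for inhibitors and from 2.96% to 5.83% for urinary proteins, since these 3 genes leave the sum. The labels used here do not say whether the replicate numbers shared by the groups pair the animals. Correlations of same-numbered libraries ran from -0.23 to 0.51, with 2 of 7 over 0.1, and cannot decide it. With the replicate block, TBT 8 dropped, 0 genes were called and the summed ratio was -0.76. The median over 12 tested members was then -1.76 (Alb -2.45, Fga -2.11, Ahsg -2.45, Mup3 -2.33).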

Other observations

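Mitochondrial transcripts were high in the same 4 animals, a comparison chosen after values had been seen. The 13 protein genes of the mitochondrial genome held 4.55% of the counts in vehicle 7, 4.47% in TBT 1, 3.90% in vehicle 4 and 3.17% in TBT 8, whereas the 11 other libraries ranged from 0.993% to 2.30%. Of the 183 genes higher in each of these 4 libraries than in all 11 others, 31 were members, 64 were in the further hepatocyte lists and 88 were in neither. Of the 37 mitochondrial genes, 16 were among the 183. Gene models with Gm, Rik or pseudogene symbols were left out of the next ranking. Of the remaining nuclear genes among those 88, Cp, F8, Ctsl and Pigr had the highest mean levels. Cp (ceruloplasmin, the copper carrier) was 19.9 CPM in TBT 1, 19.5 CPM in vehicle 4, 17.6 CPM in vehicle 7 and 10.2 CPM in TBT 8, and up to 10.1 CPM (TBT 5) in the 11 other libraries. F8 (coagulation factor VIII) was 11.1 CPM in TBT 1 and 4.06 CPM in TBT 8, and up to 3.68 CPM elsewhere. Ctsl (the lysosomal protease cathepsin L) was 9.17 CPM in TBT 1 and 3.96 CPM in TBT 8, and up to 3.93 CPM elsewhere. Pigr (the polymeric immunoglobulin receptor, which moves IgA into bile) was 13.4 CPM in TBT 1, 13.1 CPM in vehicle 4, 7.96 CPM in vehicle 7 and 3.86 CPM in TBT 8, and up to 3.15 CPM elsewhere.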
